A study of Mus musculus with 34 samples.

Results

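The threonine, glycine and one-carbon enzymes were examined as 10 genes, namely Tdh, Gcat, Psph, Shmt1, Shmt2, Gldc, Amt, Mthfd1, Mthfd1l and Mthfd2. They were taken by symbol from the 23366 rows of the deposited RNA-seq table, in which all 10 were found. The table holds 4 libraries of the J1 line of mouse embryonic stem cells (mESCs), which were kept on gelatin. Of these, 2 came from cells without leukemia inhibitory factor (serum/-LIF) and 2 from cells without LIF that received purified Royalactin, the major protein of royal jelly, at 0.5 mg/ml (serum/-LIF + Royalactin). All 4 are labelled as passage 40, while a figure legend of the study gives passage 10 for its J1 RNA-seq of these conditions. How long the cells had been without LIF or with Royalactin is not in the labels. The comparison was therefore that of Royalactin with its absence, in cells that had all lost LIF. Serum/+LIF RNA was not analysed here. The labels do not say whether the 2 libraries of a condition came from separate cultures, so the p-values measure only the spread between these libraries, which may be technical.

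These enzymes make, break down and use glycine and serine, and pass single carbon units to folate. Tdh oxidizes threonine in the mitochondrion, and Gcat then splits the product into glycine and acetyl-CoA. Psph carries out the last step of serine synthesis. Shmt1 in the cytosol and Shmt2 in the mitochondrion turn serine into glycine and load the released carbon onto tetrahydrofolate. The glycine cleavage system, which includes Gldc and Amt, loads a further carbon from glycine. Mthfd1 in the cytosol and Mthfd2 and Mthfd1l in the mitochondrion interconvert the folate forms, which feed purine, thymidylate and methionine synthesis. Mouse embryonic stem cells are known for high Tdh expression and for their dependence on threonine.

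Tdh lies on chromosome 14 (chr14:64111184-64127929 of mm9, minus strand). Part of its coding sequence is shown first because it has a near-identical copy, which bears on how reads were counted. Of 81 tiles of 75 bases cut from Tdh exons, 18 (22.2%) had a second match elsewhere, allowing 2 mismatches, and 17 of these fell at chr2:111840374-111841705, where the GENCODE annotation has the pseudogene Gm13929. The capitals below mark the base that differs, and the difference A54C is counted from the first base shown, Tdh first.
Tdh, chr14:64119033-64119107, minus strand: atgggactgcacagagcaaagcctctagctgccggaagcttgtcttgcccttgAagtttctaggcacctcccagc
Copy, chr2:111840374-111840448, plus strand: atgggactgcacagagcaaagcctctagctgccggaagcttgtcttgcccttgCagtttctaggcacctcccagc

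Among the other members only Shmt2 had such tiles, 2 of 62, at chr7:87575117-87575787 in the pseudogene Gm15544. Neither Gm13929 nor Gm15544 is among the deposited rows, so reads of these copies cannot be seen separately. How reads that match several places were counted is not given in the sources used here, so the level of Tdh in particular is uncertain. Exons of Shmt1 overlapped those of Smcr8 on the opposite strand over 184 bases, those of Tdh overlapped Gm17232 over 66 bases and those of Shmt2 overlapped Ndufa4l2 over 14 bases. Reads of such pairs cannot be told apart without the strand. The other 7 members had no exon overlap with another gene. All 10 are protein-coding genes in this annotation. Of the enzymes that make or break glycine, Gcat at chr15:78861304-78873988, Gldc at chr19:30172939-30249908 and Amt at chr9:108199184-108203902 lie on separate chromosomes. The enzymes of serine lie elsewhere again, Psph at chr5:130271434-130293129, Shmt1 at chr11:60601606-60625220 and Shmt2 at chr10:126954195-126959491. The folate enzymes are Mthfd1 at chr12:77356219-77420807, Mthfd1l at chr10:6179460-6373423 and Mthfd2 at chr6:83255685-83267600 (all mm9).

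Promoter sequences of RefSeq (GRCm38.p6) were matched by symbol for 9 of the 10 members, all but Tdh. The 250 bases before the start are shown for Amt, Psph and Mthfd2, because these 3 had the largest fitted differences of the members after Tdh, Amt in the one direction and Psph and Mthfd2 in the other. Capitals mark the CCAAT box (CCAAT) and the GC box (GGGCGG) on either strand.
Amt promoter, chr9:108296655-108296904, plus strand: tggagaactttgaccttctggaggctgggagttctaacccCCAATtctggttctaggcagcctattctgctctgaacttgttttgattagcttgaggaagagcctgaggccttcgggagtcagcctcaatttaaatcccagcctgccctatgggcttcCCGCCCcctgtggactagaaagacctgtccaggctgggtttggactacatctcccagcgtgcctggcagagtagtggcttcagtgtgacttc
Psph promoter, chr5:129787254-129787503, minus strand: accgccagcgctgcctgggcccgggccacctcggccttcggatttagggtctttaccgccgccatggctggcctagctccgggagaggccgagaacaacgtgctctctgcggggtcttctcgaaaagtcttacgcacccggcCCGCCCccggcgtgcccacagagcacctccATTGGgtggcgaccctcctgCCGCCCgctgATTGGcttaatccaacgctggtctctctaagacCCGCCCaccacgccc
Mthfd2 promoter, chr6:83317605-83317854, minus strand: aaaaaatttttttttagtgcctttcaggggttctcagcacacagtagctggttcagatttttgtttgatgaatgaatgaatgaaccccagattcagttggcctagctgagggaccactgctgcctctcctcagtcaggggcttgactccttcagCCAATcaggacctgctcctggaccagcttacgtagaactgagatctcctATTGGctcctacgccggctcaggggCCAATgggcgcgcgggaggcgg

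The CCAAT letters were held by 6 of the 9 member promoters and by 33.8% of all 32851 promoters of the same length. The GC box letters were held by 7 of 9, against 32.7% of all. The promoters of Psph and Mthfd2 held CCAAT at 2 and 3 places, within 96 bases of the start in both, whereas the single match of Amt lay 210 bases before the start. Mthfd2 had no GC box. The E-box CACGTG, a Myc site, and GATGCAA, core letters of the element read by Atf4, were in 0 of the 9, against 6.02% and 2.19% of all promoters. None of these strings of letters contains another.

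Every value below is a DESeq-normalized count, that is the reads of a gene over a size factor for the whole library. Gene totals ran from 14737796 to 17597818 reads over the 4 libraries. The 45S ribosomal RNA precursor Rn45s took 9.08 to 46.6% of them and was higher in both replicates 1 than in either replicate 2, so that the conditions overlapped. Within each replicate number it was lower with Royalactin. The members were counted by 244 to 8331 reads per library, and all 10 passed the filter of a mean normalized count of at least 10, as did 12993 genes in all. Differences were tested with limma on log2(normalized count + 1) with Benjamini-Hochberg adjustment over those 12993 genes. A threshold of 0.05 was used for the adjusted p-value. An exact permutation test of 2 libraries against 2 cannot give a two-sided p below 0.333, so none was used for single genes.

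1 of the 10 enzymes, Tdh, differed between the conditions at an adjusted p under 0.05, and it was higher with Royalactin. Over all tested genes 0.493% passed, 0.331% higher and 0.162% lower. The study's methods give limits of a p of 0.05 and a 2-fold change, for DESeq and without a word on adjustment. Applied here to the unadjusted limma p, these limits again selected 1 of 10, against 7.13% of all tested genes (3.52% higher and 3.61% lower). The libraries of the conditions did not overlap for 6 members, of which 4 were higher with Royalactin (Tdh, Gldc, Shmt1 and Amt) and 2 lower (Psph and Mthfd2). Over all tested genes 19.7% were higher and 18.9% lower without overlap, 38.6% in all.

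**Figure D1:**
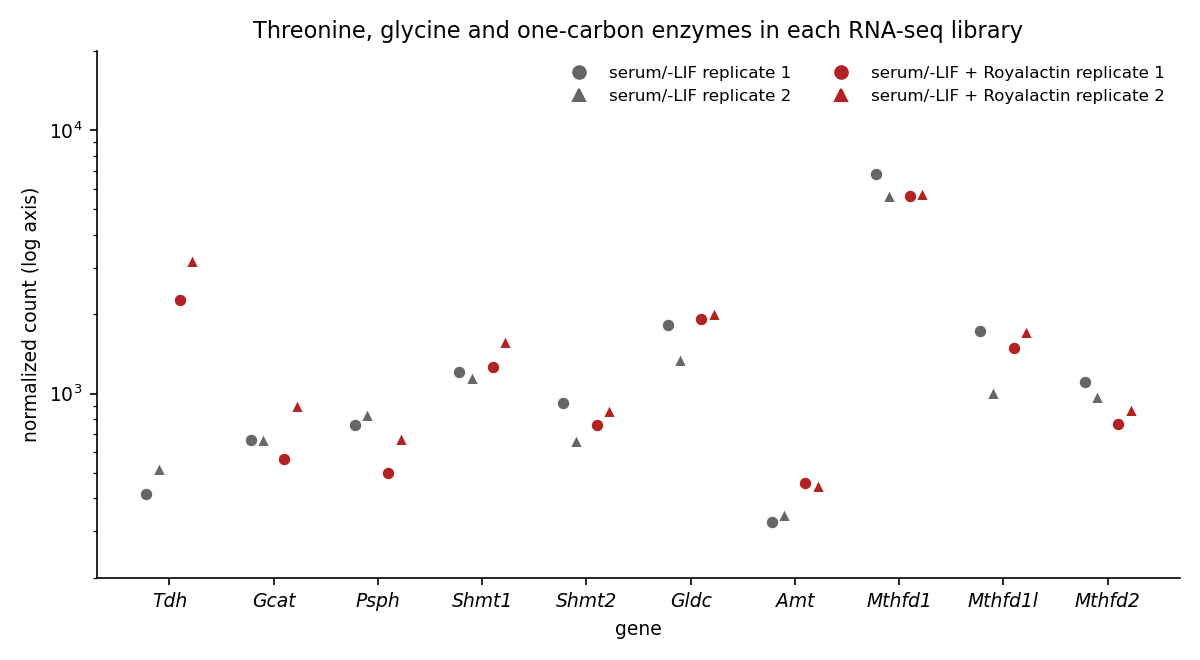
DESeq-normalized counts (log axis) of the 10 enzyme genes in each of the 4 libraries, grey for serum/-LIF and red for serum/-LIF + Royalactin, circles for replicate 1 and triangles for replicate 2. Tdh lies at 416 and 520 without and at 2268 and 3196 with Royalactin, while the conditions lie close together for the other 9.

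Tdh, the threonine dehydrogenase, stood at 416 and 520 normalized counts in serum/-LIF replicates 1 and 2. With Royalactin it stood at 2268 and 3196. Both Royalactin libraries were far above both serum/-LIF libraries, and the gap between the conditions was wider than that between replicates. These values rest on 311, 502, 2255 and 4643 reads. The mean of Tdh was 468 ± 73.3 in serum/-LIF and 2732 ± 656 with Royalactin (SD, n = 2). It rose by a fitted 2.53 on the log2 scale, with a standard error of 0.31, or 5.78-fold (95% interval 3.62 to 9.24, limma adjusted p = 0.00333). Of the 43 genes that passed with higher values, 14 had a larger fitted rise. Among all 12993 tested genes, called or not, Tdh ranked 242 by fitted rise. The size held when each library was left out in turn, with a log2 fold change of 2.28 to 2.78, but the call did not. In these 4 fits no gene passed, and the limma adjusted p of Tdh was 0.166 to 1.00 (unadjusted 0.000277 to 0.00189). Without any 1 of serum/-LIF replicate 1, serum/-LIF replicate 2, Royalactin replicate 1 or Royalactin replicate 2, the number of called members was thus 0.

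Tdh took 2.64 and 3.97% of the summed normalized counts of the 10 enzymes in serum/-LIF, and 14.5 and 17.8% with Royalactin. The other 9 enzymes together summed to 15355 and 12582 normalized counts in serum/-LIF and to 13348 and 14772 with Royalactin, so that their conditions overlapped. When libraries were scaled to their reads outside Rn45s in place of the size factors, the log2 fold change of Tdh was 2.59.

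Gcat, which acts directly after Tdh, did not pass the test. Its levels were 669 and 667 normalized counts in serum/-LIF and 563 and 899 with Royalactin, where the replicates lay on either side of both serum/-LIF values. The fitted log2 difference was 0.09 (95% interval as a fold 0.644 to 1.76, limma adjusted p = 0.957), and its sign turned to -0.24 without Royalactin replicate 2. The ratio of Tdh to Gcat inside a library, a pair chosen after the values were seen, was 0.623 and 0.780 in serum/-LIF and 4.02 and 3.55 with Royalactin. Such a ratio does not depend on the size factor of its library. On the log2 scale it changed from -0.52 ± 0.23 to 1.92 ± 0.13 (SD, n = 2).

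**Figure D2:**
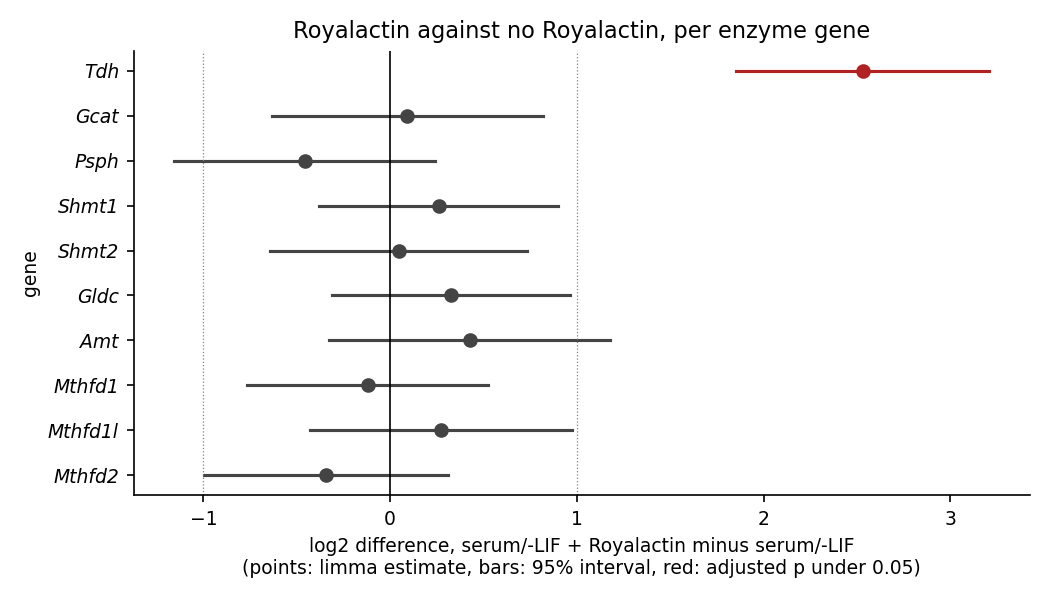
log2 difference between serum/-LIF + Royalactin and serum/-LIF (x axis) for each of the 10 enzyme genes, as the limma estimate with its 95% interval, red where the adjusted p is under 0.05 and with dotted lines at 2-fold. The interval of Tdh, from 1.86 to 3.21, lies wholly beyond 2-fold, and those of the other 9 all include 0.

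The other 9 enzymes had fitted log2 differences between -0.46 and 0.43, 6 above and 3 below 0, with limma adjusted p-values from 0.723 to 0.978. Their 95% intervals reached at most 2.26-fold upward, for Amt, and 0.449-fold downward, for Psph. Changes within these bounds could not be told from none with 2 libraries per condition.

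Psph, the phosphatase that releases serine, stood at 761 and 833 normalized counts in serum/-LIF and at 499 and 673 with Royalactin. Both Royalactin libraries were lower, by less than the test could call, with 0.728 times the level without Royalactin (95% interval 0.449 to 1.18, limma adjusted p = 0.723). The preceding serine enzymes, Phgdh and Psat1, also had lower values in both Royalactin libraries. Phgdh, the first enzyme of the route, stood at 2279 and 2426 normalized counts in serum/-LIF and at 966 and 1567 with Royalactin, a log2 difference of -0.93 (unadjusted p = 0.0106, limma adjusted p = 0.320). Psat1, the transaminase between them, stood at 4608 and 4547 in serum/-LIF and at 2617 and 4029 with Royalactin (log2 difference -0.50, limma adjusted p = 0.678). None of the 3 genes of serine synthesis passed the test, and all 3 were lower without overlap, as were 18.9% of all tested genes.

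Shmt1, the cytosolic hydroxymethyltransferase, stood at 1208 and 1143 normalized counts in serum/-LIF and at 1257 and 1574 with Royalactin. The conditions did not overlap, but the lowest Royalactin value was close to the highest serum/-LIF value (log2 difference 0.26, 95% interval as a fold 0.769 to 1.86, limma adjusted p = 0.841). Its mitochondrial counterpart Shmt2 stood at 919 and 663 in serum/-LIF and at 757 and 858 with Royalactin, so that the Royalactin libraries lay between the others (1.03-fold, 95% interval 0.640 to 1.66, limma adjusted p = 0.978). The ratio of Shmt2 to Shmt1 was 0.761 and 0.581 in serum/-LIF and 0.603 and 0.545 with Royalactin, and overlapped.

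Gldc, the glycine decarboxylase of the cleavage system, stood at 1824 and 1342 normalized counts in serum/-LIF and at 1921 and 2006 with Royalactin. The Royalactin libraries were close to each other and just above serum/-LIF replicate 1 (1.25-fold, 95% interval 0.805 to 1.95, limma adjusted p = 0.792). Amt, the aminomethyltransferase that acts next, stood at 326 and 347 in serum/-LIF and at 457 and 448 with Royalactin. In both conditions its replicates were nearly equal, at 337 ± 14.4 and 452 ± 6.04 (SD, n = 2), so that the conditions differed by more than the spread of their own replicates. The limma test, which draws the spread of a gene toward that of genes with like expression, did not call this log2 difference of 0.43 (95% interval as a fold 0.798 to 2.26, adjusted p = 0.765). Named for their role, Gcsh, the lipoyl carrier of the same system, stood at 1238 and 1294 in serum/-LIF and at 1514 and 1653 with Royalactin (log2 difference 0.32, limma adjusted p = 0.788), and Dld, its dehydrogenase, at a log2 difference of -0.21 (limma adjusted p = 0.875). Gldc exceeded Amt 5.58- and 3.86-fold in serum/-LIF and 4.20- and 4.47-fold with Royalactin, as ratios of normalized counts that are not divided by gene length.

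Mthfd1, the cytosolic enzyme with 3 folate activities, was the most abundant member. It stood at 6806 and 5605 normalized counts in serum/-LIF and at 5635 and 5735 with Royalactin, so that the conditions overlapped (0.920-fold, 95% interval 0.589 to 1.44, limma adjusted p = 0.935). Mthfd1l, the mitochondrial enzyme that releases formate, differed more between the serum/-LIF libraries than between conditions, at 1735 and 1008 against 1490 and 1711 with Royalactin (1.21-fold, 95% interval 0.742 to 1.96, limma adjusted p = 0.849). Mthfd2, the mitochondrial dehydrogenase of the same route, stood at 1109 and 974 in serum/-LIF and at 768 and 870 with Royalactin, lower in both (0.787-fold, 95% interval 0.501 to 1.24, limma adjusted p = 0.785).

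Inside each library Mthfd2 was 0.163 and 0.174 times Mthfd1 in serum/-LIF and 0.137 and 0.152 times with Royalactin, without overlap. For Mthfd1l against Mthfd1 the ratios were 0.255 and 0.180 in serum/-LIF and 0.265 and 0.298 with Royalactin, again without overlap but in the opposite direction. The log2 ratios changed by -0.23 and 0.39, and both changes are given as descriptions, without a test.

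**Figure D3:**
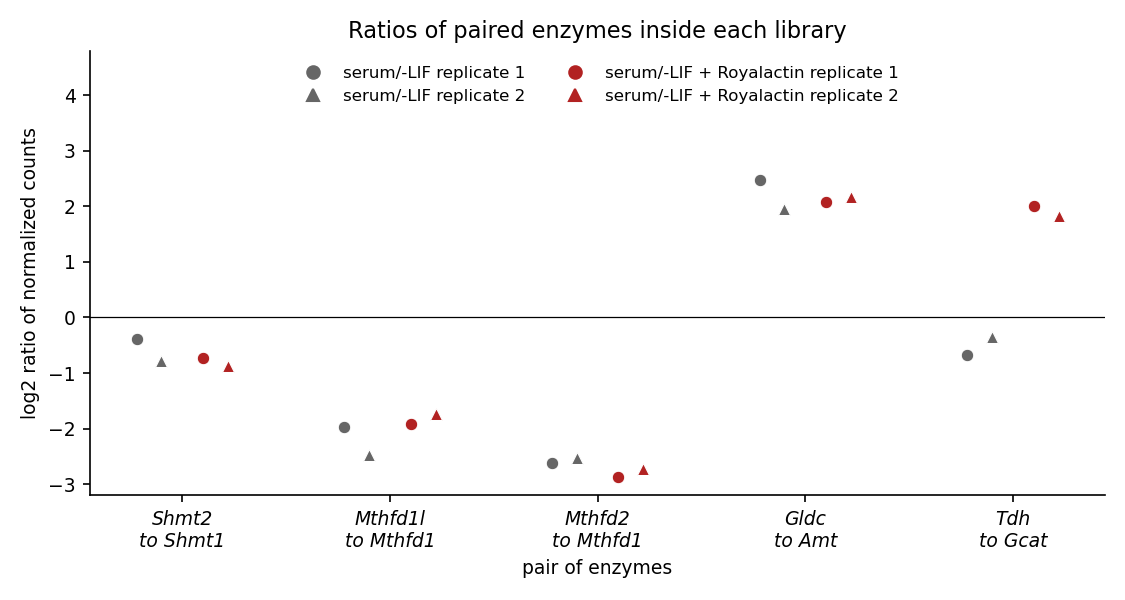
log2 ratio of the normalized counts of paired enzymes inside each library (y axis), grey for serum/-LIF and red for serum/-LIF + Royalactin, circles for replicate 1 and triangles for replicate 2. The ratio of Tdh to Gcat lies below 0 in both serum/-LIF libraries and near 2 in both Royalactin libraries, while the other 4 ratios differ between conditions by 0.39 or less on average.

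The members were also ordered by level per kilobase of exon, with lengths taken over all annotated exons of a gene and GC content uncorrected. The annotation used for counting is not given, so the order is approximate. Tdh was 9 of the 10 members in serum/-LIF, at 179 ± 28.0 normalized counts per kilobase (SD, n = 2). With Royalactin it was 2 of 10, at 1045 ± 251. Mthfd1 stood first in both conditions, at 1867 ± 255 and 1710 ± 21.2, and did not overlap the next gene in either. In serum/-LIF the next 6 by mean, Psph (438), Gldc (422), Mthfd2 (383), Shmt2 (347), Mthfd1l (309) and Shmt1 (303), each overlapped their neighbours. Amt (197), Tdh (179) and Gcat (173) lay below them and overlapped in turn. With Royalactin, Tdh was followed without overlap by Gldc at 523 ± 15.9, then by Shmt1, Mthfd1l, Shmt2, Psph and Mthfd2 at 365 to 301, whose neighbours overlapped, and by Amt at 265 and Gcat at 190, neither of which overlapped the gene above it.

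The wider pathway, together with 12 Atf4 and amino acid response genes outside it, was described by 6 lists with 68 further genes. Of these genes 56 were tested and 0 passed an adjusted p of 0.05 in limma. The lowest adjusted p was 0.193. At an unadjusted p under 0.05 there were 6 of the 56 genes, beside 1214 of all 12993 tested genes. Of the 6, 4 met the 2-fold limit as well, all lower with Royalactin. Over all tested genes 7.13% met both limits in either direction and 3.61% lower. Without overlap, 9 of the 56 were higher (16.1%) and 22 lower (39.3%), against 19.7% and 18.9% of all tested genes. Of the 22 lower, 8 were of the Atf4 list outside the pathway. The 4 genes that met both limits were Gatm, Atf3, Ddit3 and Slc7a11, and they were picked by their values. Only Gatm is of the pathway, while Atf3, Ddit3 and Slc7a11 are of the Atf4 list. Gatm, which uses glycine to make the precursor of creatine, stood at 166 and 236 normalized counts in serum/-LIF and at 66.4 and 28.9 with Royalactin (log2 difference -2.15, limma adjusted p = 0.193).

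Of the 16 other folate genes 14 were tested, 7 with a fitted difference above and 7 below 0, with a median log2 difference of -0.03 against -0.01 for all tested genes. The outermost were Aldh1l1, a folate dehydrogenase (log2 difference 0.77, limma adjusted p = 0.851), and Mthfd2l, a relative of Mthfd2 (log2 difference -1.13, limma adjusted p = 0.685). The 13 genes of purine synthesis, a route that consumes glycine and formyl folate, had a median of -0.07. They ran from 0.67 for Prps1 (limma adjusted p = 0.512) to -1.52 for Adssl1 (limma adjusted p = 0.830). The 11 tested of 14 genes of the methionine cycle and transsulfuration had a median of -0.20, with 4 above and 7 below 0. Mtr, which passes the folate methyl group to homocysteine, stood at 645 and 522 normalized counts in serum/-LIF and at 961 and 862 with Royalactin (log2 difference 0.65, limma adjusted p = 0.569). Gnmt, which uses up methyl groups on glycine, had the lowest value of that list (log2 difference -1.33, limma adjusted p = 0.775).

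Of the 11 other genes of threonine, serine and glycine breakdown only 4 passed the filter, Pipox, Gcsh, Dld and Gatm, with a median log2 difference of 0.06. Pipox, which oxidizes sarcosine, was the highest of them (log2 difference 0.66, limma adjusted p = 0.668). The 7 others, among them the serine dehydratase Sds and the threonine aldolase Tha1, were too low to be tested, with Sds and Sardh at 0 in all 4 libraries.

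The list of Atf4 and 11 amino acid response genes outside the pathway had a median log2 difference of -0.51 against -0.01 for all tested genes. Of its 12 genes 11 had a fitted difference below 0 and 8 were lower in both Royalactin libraries, against 18.9% of all tested genes. None passed the test. The outermost were Sesn2 (log2 difference 0.53, limma adjusted p = 0.781) and Slc7a11, the cystine transporter, which stood at 100.3 and 98.3 normalized counts in serum/-LIF and at 31.2 and 17.9 with Royalactin (log2 difference -2.02, limma adjusted p = 0.377). Atf4 itself, named for its role, stood at 2629 and 4125 in serum/-LIF and at 2012 and 2590 with Royalactin.

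**Figure D4:**
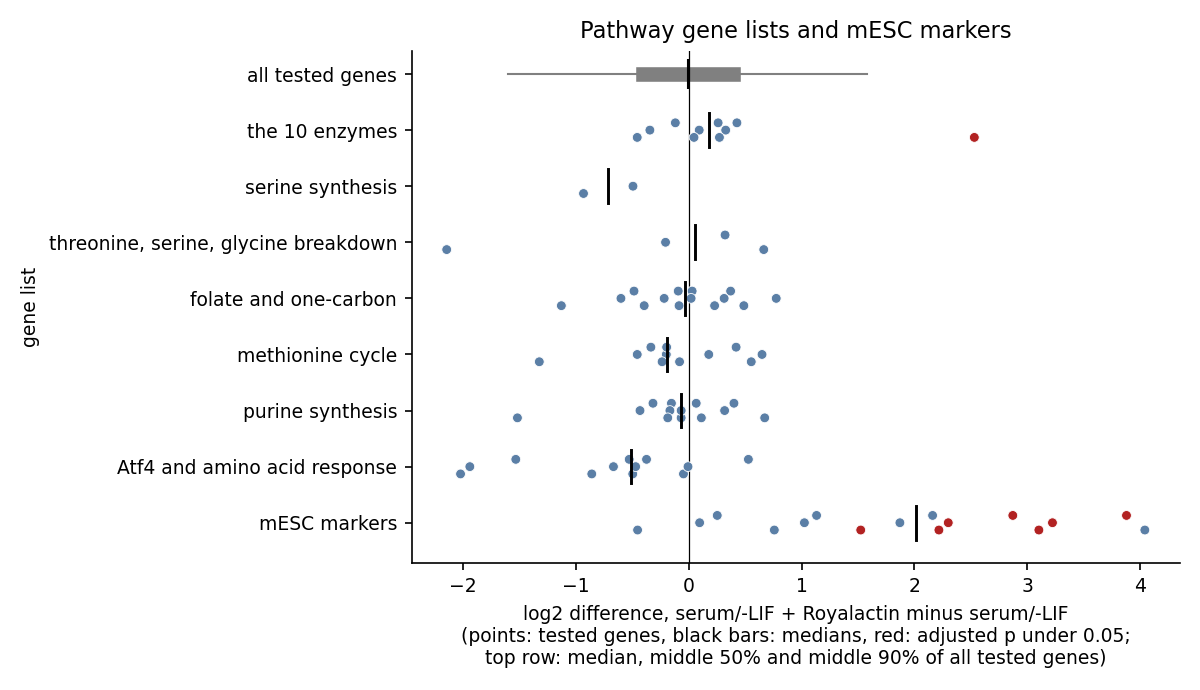
log2 difference between serum/-LIF + Royalactin and serum/-LIF (x axis) for every tested gene of each list, with black bars for medians and red points for an adjusted p under 0.05, and the spread of all tested genes in the top row. Tdh is the only red point among the metabolic lists, and 7 of the 16 mESC markers are red.

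The rise of Tdh went together with that of most of the stem cell markers listed. Of 16 mESC markers 7 passed, all higher with Royalactin (Esrrb, Fbxo15, Klf4, Nr5a2, Sox2, Tfcp2l1 and Zfp42), against 0.331% of all tested genes. Without overlap 13 were higher and 1 lower, against 19.7% and 18.9% of all. The lower one was Tdgf1, at 10914 and 14553 in serum/-LIF and at 8696 and 9728 with Royalactin (limma adjusted p = 0.730). It was the only one with a fitted difference below 0. The markers summed to 26642 and 32646 normalized counts in serum/-LIF and to 39951 and 46900 with Royalactin. None of the 16 was at 0 in all libraries, and Pou5f1, named as a defining one, stood at 4996 and 5407 in serum/-LIF and at 5140 and 7453 with Royalactin. The 12 fibroblast-like markers summed to 512 and 574 in serum/-LIF and to 339 and 199 with Royalactin, with Postn, Pdgfrb and Fap at 0 in all libraries, 5 tested and 0 past the threshold. The 8 primitive endoderm markers summed to 392 and 295 and to 336 and 221, and the 8 markers of primitive streak and mesoderm to 201 and 124 and to 225 and 123, with Tbx6 at 0 and 0 genes past the threshold in either list. Only 4 of the former and 5 of the latter were tested. Without overlap 1 of the 4 was higher with Royalactin and 1 lower, and 2 of the 5 were higher and 0 lower. Of the 8 neural markers 5 were tested and 1 passed, Nes, which stood at 1490 and 1099 in serum/-LIF and at 334 and 326 with Royalactin. Neurog2 was at 0 in all libraries. The sum of the neural markers was 2142 and 1693 in serum/-LIF and 1208 and 1354 with Royalactin, and Nes alone made it lower. The other 4 tested had fitted differences above 0, none past the threshold. Of these, named after their values were seen, Pax6 stood at 93.6 and 79.7 in serum/-LIF and at 172 and 171 with Royalactin, and Tubb3 at 377 and 379 and at 484 and 708, both without overlap. In bulk samples fewer cells of a type and less RNA per cell cannot be told apart, and the part of the cell mixture in the level of Tdh was not tested.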

How the data were processed

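The 4 RNA-seq libraries, 2 for each condition, were grouped by their labels. The other samples of the series, ATAC-seq, were not analysed here. RNA was depleted of ribosomal RNA. Per the study's methods the authors used Tophat for alignment to mm9, with at most 2 mismatches, and HTSeq-count for counting. The signal that the authors deposited is a DESeq-normalized count. Whether strand was used, and which annotation, is not given in the sources used here. Within 0.01 of a read, 100% of values were whole multiples of 1 step per library, from which reads were computed. For Royalactin replicate 1 this step was close to 1, at 1.006. The tests used normalized counts, and read counts were not tested. Normalization by a size factor leaves gene length and GC content uncorrected.

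Differences were tested with limma 3.58.1 in R 4.3.3 (two-sided, with a variance trend and Benjamini-Hochberg adjustment across the tested genes) on log2(normalized count + 1), for genes with a mean of at least 10. On this scale the fold changes of weakly expressed genes are understated. All 10 members were named. Of the other pathway lists and the Atf4 list, the highest and lowest fitted difference and every gene past the threshold were named. Of the marker lists the summed level, markers at 0 and those past the threshold were given, with further genes identified as chosen by value or by role. The members and lists were chosen with earlier results of these data known. Exon lengths and positions are from GENCODE on mm9, for 98.2% of tested genes, and tiles were mapped with minimap2 2.31-r1302, with no tile across an exon junction. The steps were tested on simulated data with a replicate spread smoothed over genes. There 14.6% of genes changed 2-fold were called, and 66% of those changed 4-fold. Of all calls 6.12% were of unchanged genes. Alternatives were other pseudocounts (0.1 and 5), filters and scalings, the replicate block, no trend, a GC and length correction (lowess span 0.3), each library left out, and, added after seeing the data, the study's limits on the unadjusted limma p.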

Additional observations from a re-analysis of the deposited data

How the results depend on the processing

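Tdh kept its direction under all 15 alternatives, with a log2 fold change of 2.28 to 2.78. With the replicate block its p-values rest on the variance trend over genes, not on its own spread. It stayed past the threshold under 10, these block fits included (limma, Benjamini-Hochberg adjusted p up to 0.0142). It did not without the trend of the variance (limma adjusted p = 0.214), where 0 of 12993 genes and 0 members were called and 1135 genes had an unadjusted p under 0.05, or in any of the 4 fits that leave out a library, where the called members and genes numbered 0 and 0 (428 to 2496 genes at an unadjusted p under 0.05). A library alone in its condition is there assumed to vary like the others. None of the other 9 members passed under any alternative (lowest limma adjusted p 0.258). Of their 135 alternative values 130 kept their sign. The 5 others came with a library left out. Over those 4 fits Mthfd1 ran from -0.26 to 0.0204 (above 0 without serum/-LIF replicate 1), Mthfd1l from -0.12 to 0.66 (below 0 without serum/-LIF replicate 2), Gcat from -0.24 to 0.43 (below 0 without Royalactin replicate 2) and Shmt2 from -0.19 to 0.28 (below 0 without serum/-LIF replicate 2 and, at -0.04, without Royalactin replicate 2).

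The number of genes past the threshold, 64, was 32 with a pseudocount of 0.1, 34 without a filter, 99 at a mean of at least 50, 253 after the GC and length correction and 927 by the unadjusted p and 2-fold rule. That rule selected 4 genes of the other lists, of which only Gatm is of the pathway. With the replicate block the number of genes past the threshold was 391, and 798 with the GC and length correction as well. The block leaves too little to estimate the spread of a single gene from these libraries. Its p-values therefore rest on the variance trend over genes, and the calls below hold only under that assumption. Of the 56 tested genes of the other lists the block called 2, beside 391 of all 12993 tested genes. These were Gatm and Phgdh, both lower with Royalactin (limma adjusted p = 0.0217 and 0.036). With the correction as well it called 4 of the 56, beside 798 of 12993, when Psat1 was also lower and Prps1 higher. The labels do not say that the numbers pair the libraries, so the block was used only as an alternative. Same-numbered libraries had deviations that correlated at 0.0851 across genes, while Rn45s was higher in both replicates 1 than in either replicate 2. For these counts the cause was not tested. Members had at least 244 reads in every library, and what depth adds to the spread between replicates was not tested.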
